A study of Mus musculus with 6 samples.

Results

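Acod1 and 8 genes of the tricarboxylic acid cycle and its branch points, Aco1, Cs, Idh1, Idh2, Idh3a, Ogdh, Fh1 and Mdh2, were followed in RNA sequencing of a mouse macrophage line grown on a pair of hydrogels. The 9 genes were taken by symbol from a deposited table of 56691 genes, each matched 1 row, and all 9 had enough reads to be tested. The cells, written in the labels as RAW246.7 with a wild-type genotype (WT), had all been pretreated with lipopolysaccharide (LPS), a bacterial product that activates macrophages. They were then kept for 24 h on MSA-ZW hydrogel (3 libraries) or on MSA-DA hydrogel (3 libraries), and no group without LPS or without a gel was analysed here. The series title ties these macroporous gels, which differ in how much protein they absorb, to fibrin networks and macrophage function. A gene called higher or lower was so on MSA-DA, with MSA-ZW as the reference. The labels do not say that libraries of a gel came from separate cultures, so p-values measure how far these samples spread, which may be a technical spread.

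Citrate synthase opens the tricarboxylic acid cycle in the mitochondrial matrix, aconitase turns citrate into isocitrate by way of cis-aconitate, and the dehydrogenases that follow feed electrons to the respiratory chain. In macrophages activated by LPS or interferons, the Acod1 gene product draws cis-aconitate out of the cycle and makes itaconate, a metabolite that inhibits succinate dehydrogenase and can modify KEAP1, the restraint of the antioxidant factor NRF2. Some steps also have a cytosolic enzyme: Aco1, which doubles as an iron-sensing RNA-binding protein, and Idh1, which makes NADPH, the reductant used by the glutathione and thioredoxin systems.

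The upstream sequences of Acod1 and Idh1 are shown because these were the members that differed between the gels. They are the 250 bases before the annotated gene start, 5′ to 3′ on the gene's strand, from RefSeq on GRCm38.p6, a different build from the GRCm39 coordinates of the deposited table. Capitals mark matches, on either strand, to an NF-kB palindrome (GGAAATTCC), a short interferon regulatory factor site (GTGAAA), or a TATA box (TATAAA). They also mark the CCAAT box, searched as the letters CCAAT, whose match on the opposite strand appears reversed and complemented. No marked matches overlap.
Acod1, chr14:103046762-103047011, plus strand: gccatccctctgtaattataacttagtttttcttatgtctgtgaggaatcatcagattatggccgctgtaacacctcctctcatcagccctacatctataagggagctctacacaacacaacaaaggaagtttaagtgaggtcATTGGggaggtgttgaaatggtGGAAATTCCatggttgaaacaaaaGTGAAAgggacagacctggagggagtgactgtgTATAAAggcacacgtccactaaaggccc
Idh1, chr1:65186480-65186729, minus strand: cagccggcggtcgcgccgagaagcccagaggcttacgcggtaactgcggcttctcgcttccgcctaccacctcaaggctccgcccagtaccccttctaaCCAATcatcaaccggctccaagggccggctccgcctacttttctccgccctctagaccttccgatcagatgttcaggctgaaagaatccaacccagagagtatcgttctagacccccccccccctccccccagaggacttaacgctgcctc

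The Acod1 window held the NF-kB palindrome with its first base 85 bases before the start, the short interferon regulatory factor site at 61 bases and the TATA box at 28 bases. Among 32851 mouse promoter windows of this length, 0.286% held the palindrome, 11.1% the short interferon site, 12.4% the TATA box and 33.8% a CCAAT box. The reference table held 14 windows for 8 of the 9 members, and of these 14 the Acod1 window alone had the palindrome, the short interferon site or the TATA box. The Idh1 window shown had a single CCAAT box, 151 bases before the start. Another Idh1 window, at a different annotated start, held none of the motifs. Which start these cells use was not tested. The full interferon element (GAAA, any 2 bases, then GAAA, in 2.98% of all windows) and the antioxidant response element core TGACNNNGC (10.2%) were found in no member window. The 6 motifs were chosen after the Acod1 sequence had been seen, and a match is a description of letters, not a measured binding site.

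Library depth was alike in both gels, with count totals of 14374912 to 18346615 on MSA-DA and 16347934 to 18193026 on MSA-ZW, and each member had 772 to 7862 counts per library. Libraries of MSA-ZW differed more from each other than those of MSA-DA (chi-square of counts per degree of freedom of 2.75 to 4.48 against 1.56 to 1.65). Of 9 macrophage markers, 8 had a mean of at least 1 FPKM, and the exception, the efferocytosis receptor Mertk, was near 0. Of these 8, Itgam rose, 5 fell (Csf1r, Lyz2, Fcgr1, Spi1 and Cd14) and 2 did not pass the edgeR test. Of all tested genes, 6.92% were called higher and 6.5% lower. The summed level of all 9 markers was lower on MSA-DA, at 4634 to 4698 counts per 1000000 counts of the library against 5395 to 5495. Lyz2 made up the largest part of this sum and of its fall. On scaled library sizes the mean of Lyz2 was 2291 counts per 1000000 on MSA-ZW and 1769 on MSA-DA. What part the marker levels have in the results for the members was not tested. In bulk RNA, fewer cells of a type and less RNA per cell cannot be told apart. Summed markers of fibroblasts, T cells, B cells, endothelial and epithelial cells stayed below 2 counts per 1000000 in every library, and those of neutrophils at 1.27 to 1.77, nearly all from S100a8.

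Per exonic base of the gene, the cytosolic dehydrogenase Idh1 had the highest level of the members and Aco1 the lowest on both gels. This order rests on the exonic size of each gene, which need not be the length of its transcripts. By counts scaled to library size alone (CPM, defined below), Mdh2 came first, at a mean of 420 over all libraries. Cs followed at 403 and Idh1 at 378, and Aco1 was again last, at 52.8. In the authors' FPKM (counts scaled to exonic length in kilobases and to library size), Idh1 had 127 ± 0.785 in MSA-ZW libraries and 146 ± 2.53 in MSA-DA libraries (SD, n = 3). It was followed by Mdh2, the enzyme that regenerates oxaloacetate (119 ± 3.53 and 117 ± 2.46 FPKM), citrate synthase Cs (71.1 ± 2.02 and 68.1 ± 0.159) and Ogdh, the decarboxylating subunit of the 2-oxoglutarate dehydrogenase complex (51.2 ± 0.516 and 50.4 ± 0.6). On each gel, neighbours among these 4 did not overlap. Idh3a, Idh2, Acod1 and Fh1 lay close together on MSA-ZW, between 30.9 and 36.0 FPKM, and each overlapped its neighbour in the order. On MSA-DA, Acod1 dropped out of this group: its highest library, 29.3 FPKM, lay below the lowest of Fh1, 30.1 FPKM. Aco1 stood at 11.5 ± 0.31 and 11.9 ± 0.495 FPKM.

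**Figure D1:**
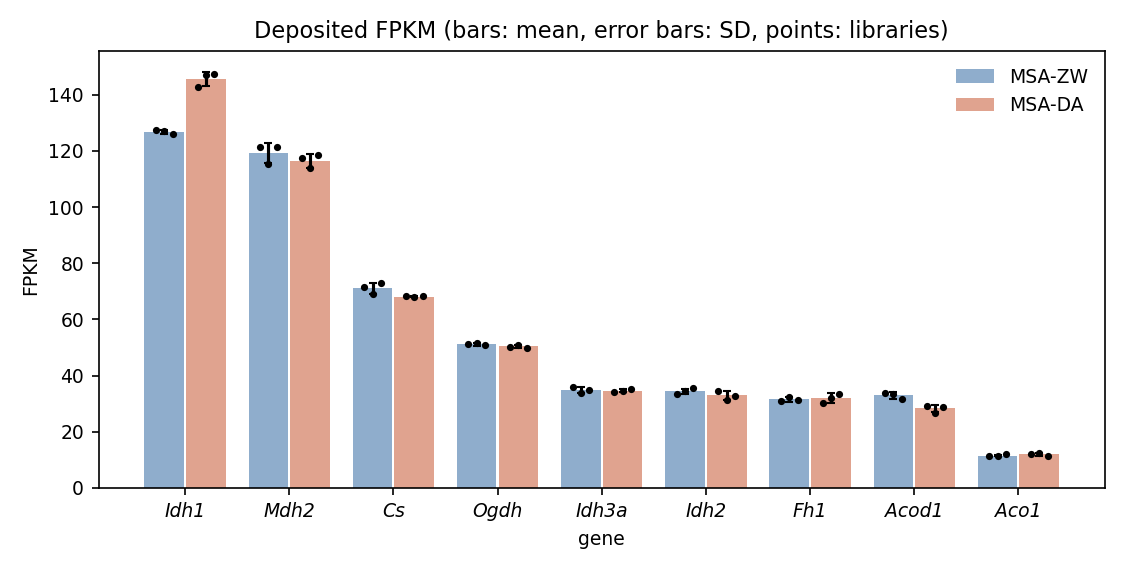
Deposited FPKM of the 9 members on a linear axis from 0, with bars for the mean of 3 libraries, error bars for the SD and points for single libraries. Idh1 is highest (127 and 146 FPKM) and Aco1 lowest (11.5 and 11.9), and Acod1 falls from 32.9 to 28.3 FPKM on MSA-DA.

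Of the 9 members, 1 rose (Idh1), 1 fell (Acod1) and 7 did not pass the test (edgeR quasi-likelihood test, adjusted p below 0.05 over 12467 genes). Across all tested genes 13.4% were called, 6.92% higher and 6.5% lower. Of 3695 genes that averaged 64 CPM (counts per 1000000 on scaled library sizes) or more, 26.8% were called, and every member but Aco1 was in that range. The share of members called was thus near that of genes of like depth. The median log2 difference of the 9 was -0.02, beside 0.00 for all tested genes. The groups did not overlap for Acod1, Idh1 and Cs, 3 of 9 members, beside 28.4% of all tested genes.

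**Figure D2:**
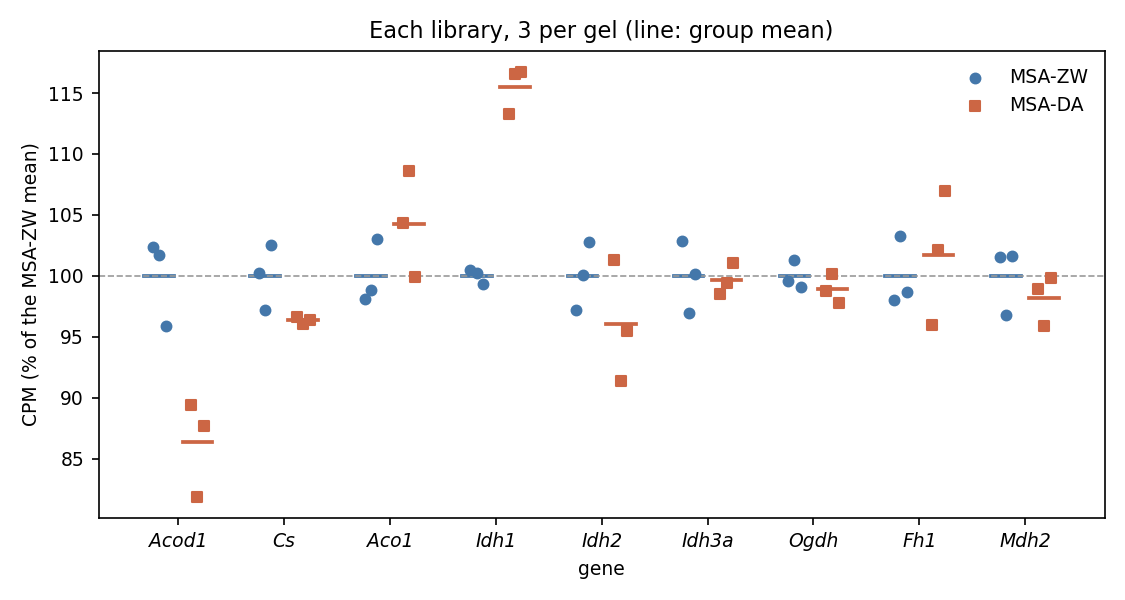
CPM of each member in each library as a percentage of that gene's MSA-ZW mean, on an axis that does not start at 0, with circles for MSA-ZW, squares for MSA-DA and lines for group means. All 3 MSA-DA squares lie below the MSA-ZW circles for Acod1 and above them for Idh1, and those of Cs lie just below, while the other 6 genes overlap.

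Acod1, the itaconate-producing enzyme (ENSMUSG00000022126, chromosome 14, 103284413 to 103294009, plus strand, GRCm39), was lower on MSA-DA. Its counts were 1460, 1432 and 1507 in MSA-ZW replicates 1, 2 and 3 and 1103, 1290 and 1191 in MSA-DA replicates 1, 2 and 3. Scaled to library size these were 88.2, 87.7 and 82.7 CPM on MSA-ZW and 77.1, 70.6 and 75.6 CPM on MSA-DA. The lowest MSA-ZW library, replicate 3, lay above the highest MSA-DA library, replicate 1. The fold was 1.16, a log2 difference of -0.21 with a standard error of 0.04 and a 95% interval from -18.9% to -8.3% (edgeR adjusted p = 0.000718). DESeq2, which called 15.5% of the genes it gave an adjusted p, called Acod1 too (adjusted p = 0.00301), as did limma on log2(FPKM + 1) (adjusted p = 0.024), which called 8.33%. No other gene of the table overlaps the Acod1 locus.

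Idh1, the cytosolic and peroxisomal isocitrate dehydrogenase that makes NADPH (ENSMUSG00000025950, chromosome 1, 65197775 to 65225659, minus strand, GRCm39), was higher on MSA-DA. It stood at 353, 352 and 349 CPM in MSA-ZW replicates 1, 2 and 3 and at 398, 409 and 410 CPM in MSA-DA replicates 1, 2 and 3. The MSA-ZW libraries lay within a few CPM of each other, and all 3 MSA-DA libraries were above them. The difference was 1.16-fold (log2 difference 0.21, standard error 0.03, 95% interval 11.2% to 20%, edgeR adjusted p = 7.92e-07). Across all tested genes, log2 differences fell with GC content (Spearman rho of -0.32, taken over genes, which do not count as independent replicates), and the transcripts of Idh1 (45.3% GC) and Acod1 (47.6%) are below the median of 50.2%. With a correction for GC content and length, added after the data were seen, the log2 difference of Idh1 was 0.16 (edgeR adjusted p = 4.34e-06) and that of Acod1 -0.24 (edgeR adjusted p = 5.48e-05).

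The mitochondrial isocitrate dehydrogenases did not pass the test. Idh2, the NADP-dependent mitochondrial counterpart of Idh1 (ENSMUSG00000030541, chromosome 7, 79744594 to 79765140, minus strand, GRCm39), stood at 86.4, 89.0 and 91.4 CPM on MSA-ZW and at 90.1, 81.3 and 84.9 CPM on MSA-DA. The gels overlapped, and the 95% interval of the difference ran from -9.7% to 1.7% (edgeR adjusted p = 0.39). Idh3a, the catalytic subunit of the NAD-dependent enzyme that works within the cycle (ENSMUSG00000032279, chromosome 9, 54493618 to 54511945, plus strand, GRCm39), stood at 182, 172 and 177 CPM on MSA-ZW and 174, 176 and 179 CPM on MSA-DA. Here too the gels overlapped (interval -4.7% to 4.2%, edgeR adjusted p = 0.945).

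Citrate synthase, Cs, the entry enzyme of the cycle (ENSMUSG00000005683, chromosome 10, 128173603 to 128198348, plus strand, GRCm39), stood at 411, 399 and 421 CPM on MSA-ZW and at 396, 394 and 395 CPM on MSA-DA. The MSA-DA libraries were nearly identical and lay below all MSA-ZW libraries, with 396 and 399 CPM as the closest pair. The difference did not pass (interval -7.3% to 0.1%, edgeR adjusted p = 0.215). Aco1, the cytosolic aconitase and iron regulatory protein (ENSMUSG00000028405, chromosome 4, 40143081 to 40198338, plus strand, GRCm39), stood at 50.7, 51.1 and 53.3 CPM on MSA-ZW and at 54.0, 56.1 and 51.6 CPM on MSA-DA. These overlapped, and Aco1, with the fewest reads of the members, had the widest interval of the 7 that did not pass, -2.8% to 12.0% (edgeR adjusted p = 0.494).

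The members of the later steps also overlapped between the gels. Ogdh (ENSMUSG00000020456, chromosome 11, 6241633 to 6306642, plus strand, GRCm39) stood at 278, 283 and 276 CPM on MSA-ZW and 276, 279 and 273 CPM on MSA-DA (interval -5.0% to 3.0%, edgeR adjusted p = 0.796). Fh1, fumarate hydratase, which turns fumarate into malate (ENSMUSG00000026526, chromosome 1, 175427940 to 175453201, minus strand, GRCm39), stood at 105, 110 and 105 CPM on MSA-ZW and 102, 109 and 114 CPM on MSA-DA (interval -3.7% to 7.7%, edgeR adjusted p = 0.751). Mdh2 (ENSMUSG00000019179, chromosome 5, 135807334 to 135819252, plus strand, GRCm39) stood at 431, 411 and 431 CPM on MSA-ZW and 420, 407 and 424 CPM on MSA-DA (interval -5.6% to 2.1%, edgeR adjusted p = 0.608). For all 7 genes that did not pass, the 95% intervals thus lay between -9.7%, for Idh2, and 12.0%, for Aco1, and those of Cs, Ogdh and Mdh2 were narrower, between -7.3% and 3.0%. Fh1 overlaps Kmo on the opposite strand, and since no source used here gives the strand setting, reads of the pair cannot be told apart where they overlap. Kmo had 13 to 40 counts per library, against 1465 or more for Fh1. The paralogs Csl, Ogdhl, Dhtkd1 and Mdh1b, which could share reads with Cs, Ogdh and Mdh2, were each listed at a mean below 0.1 FPKM over the 6 libraries. Mdh1, a relative of Mdh2, was abundant, at a mean of 99.9 FPKM, and Idh3b, a relative of Idh3a, at 33.2 FPKM, and how reads matching both of a pair were counted is unknown.

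None of the 13 other enzymes and subunits of the cycle passed the test in edgeR, DESeq2 or limma, and 2 (Dld and Sdhb) had an unadjusted edgeR p below 0.05. Their median log2 difference was -0.02, with a range from -0.10 to 0.08. The other NAD-dependent isocitrate dehydrogenase subunits, Idh3b and Idh3g, had intervals of -5.7% to 5.4% and -4.1% to 7.3%. Of the partners of Ogdh in its complex, Dlst had an interval of -3.1% to 5.0%. Dld, the dihydrolipoamide dehydrogenase shared with the pyruvate complex, stood at 304 ± 1.7 CPM on MSA-DA, against 287 ± 11.6 (SD, n = 3, edgeR adjusted p = 0.0603). Dld passed when MSA-ZW replicate 3 was left out (edgeR adjusted p = 0.00137). Once corrected for GC content and length it differed by -0.0036 on the log2 scale.

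Succinyl-CoA synthetase, which yields ATP or GTP, gave intervals of -7.4% to 2.8% for Suclg1, -8.0% to 2.3% for Suclg2 and -2.7% to 11.1% for Sucla2. Succinate dehydrogenase, the enzyme that itaconate inhibits, had all 4 subunits a little lower on MSA-DA, none of them past the test. Its catalytic subunit Sdha stood at 264 ± 2.36 CPM on MSA-DA, against 270 ± 7.09 (SD, n = 3, edgeR adjusted p = 0.55). The iron-sulfur subunit Sdhb stood at 89.7 ± 1.22 against 96.2 ± 7.36 CPM (edgeR adjusted p = 0.132), and it passed as lower when MSA-ZW replicate 1 was left out (edgeR adjusted p = 0.00726). The cytosolic malate dehydrogenase Mdh1 had an interval of -5.5% to 2.6%.

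**Figure D3:**
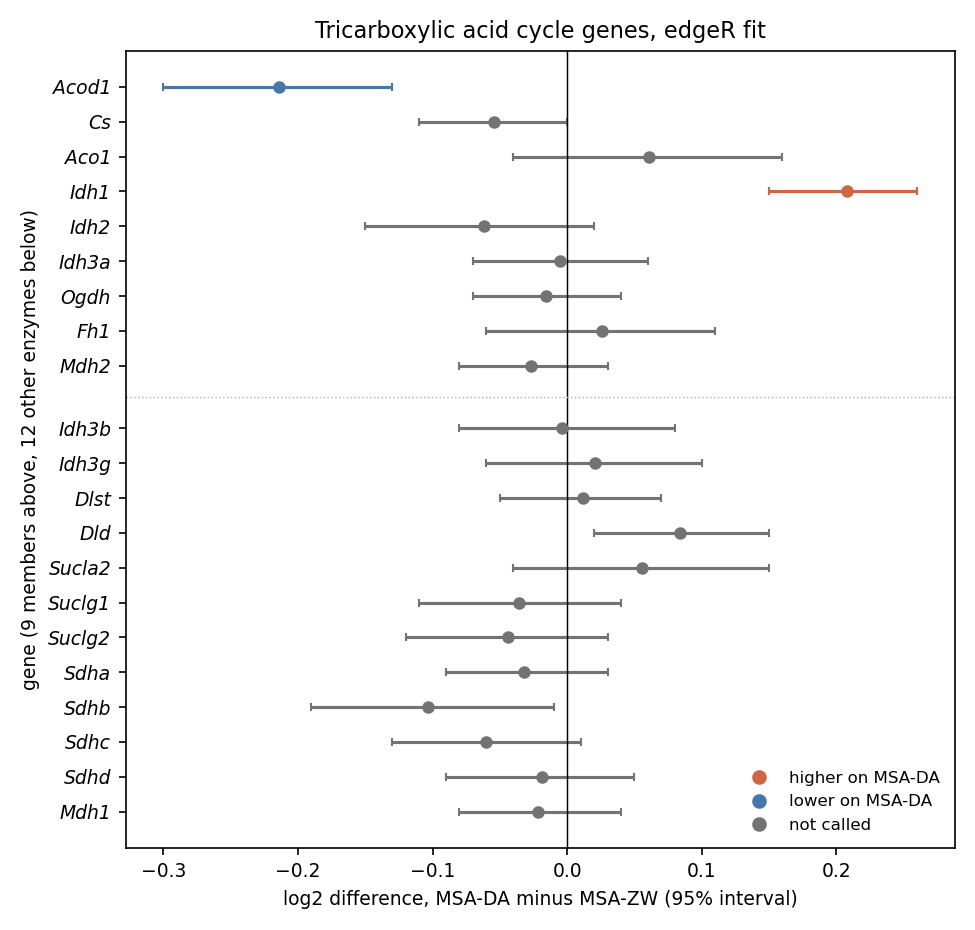
Log2 difference of MSA-DA minus MSA-ZW with its 95% interval from the edgeR fit for the 9 members (above the dotted line) and 12 of the 13 other enzymes (below). Acod1 at -0.21 and Idh1 at 0.21 stand apart, and the other enzymes lie between -0.10 and 0.08.

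Ratios within a library do not depend on library scaling factors, though they still carry effects of GC content. The ratio of Idh2 to Idh1 counts per exonic base was 0.262, 0.271 and 0.281 on MSA-ZW against 0.243, 0.213 and 0.222 on MSA-DA, so that every MSA-DA library was below every MSA-ZW library. The mean log2 ratio differed by -0.27 (-1.88 ± 0.05 on MSA-ZW and -2.15 ± 0.10 on MSA-DA, SD, n = 3, exact permutation test, two-sided p = 0.10). The transcripts differ in GC content, 56.6% for Idh2 and 45.3% for Idh1. After the GC and length correction the log2 differences of the genes themselves were -0.01 for Idh2 and 0.16 for Idh1, closer to each other than the -0.06 and 0.21 without it. The gene that makes itaconate was also set against the one that opens the cycle. The ratio of Acod1 to Cs was 0.473, 0.484 and 0.433 on MSA-ZW against 0.429, 0.395 and 0.421 on MSA-DA, also without overlap (log2 difference -0.16, exact permutation p = 0.10). With 3 libraries against 3, 0.10 is the smallest p this test can give, and adjusted over the 3 ratios computed each p was 0.10, so neither passed 0.05.

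**Figure D4:**
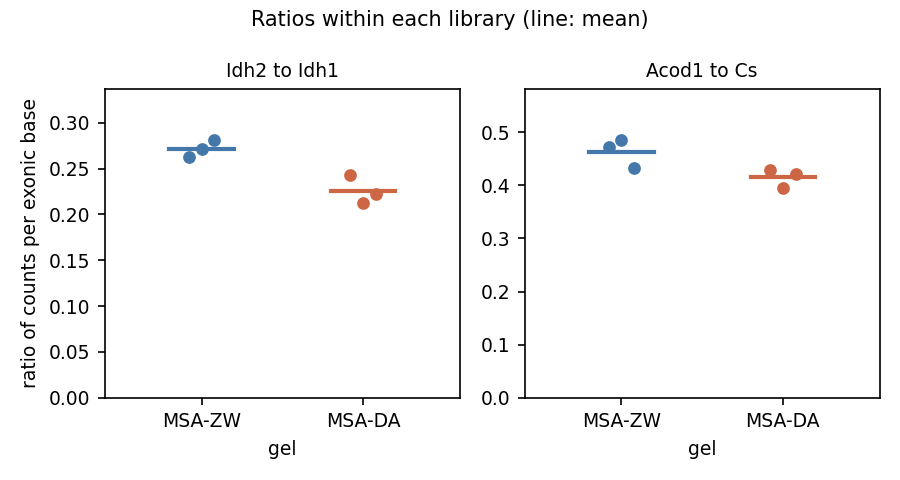
Ratio of counts per exonic base in each library for Idh2 to Idh1 and Acod1 to Cs, each on its own linear axis from 0, with lines for the mean of 3 libraries. In both panels the MSA-DA points lie below the MSA-ZW points, closest for Acod1 to Cs (0.429 against 0.433).

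Genes that feed the cycle were taken in 3 lists, whose counts of calls are to be read against 13.4% called of all tested genes and 26.8% of those at 64 CPM or more. In the pyruvate entry list, 1 of 13 tested genes rose and 12 did not pass, with a median log2 difference of 0.03. The gene that rose was Pdp2, a phosphatase that reactivates pyruvate dehydrogenase, at 39.0 ± 0.715 against 33.1 ± 2.43 CPM (SD, n = 3, 1.18-fold, edgeR adjusted p = 0.00764). It did not pass without MSA-ZW replicate 3 (edgeR adjusted p = 0.0575) or with limma (adjusted p = 0.0624). The core subunits Pdha1, Pdhb and Dlat had edgeR adjusted p of 0.732, 0.333 and 0.902. Among citrate export and malic enzyme genes 1 of 7 rose and 1 fell, with a median of -0.02. Me1, the cytosolic malic enzyme, which makes NADPH, stood at 129 ± 3.96 against 118 ± 5.95 CPM (1.10-fold, edgeR adjusted p = 0.0169). Slc25a11, the mitochondrial carrier that exchanges 2-oxoglutarate for malate, stood at 79.6 ± 5.28 against 87.9 ± 3.96 CPM (1.11-fold lower, edgeR adjusted p = 0.0273), and its groups overlapped. Neither was called by DESeq2 or limma or after the GC correction. Me1 also lost its call without MSA-ZW replicate 1 or 2 or MSA-DA replicate 2 or 3 (edgeR adjusted p of 0.0571 to 0.16), and Slc25a11 without MSA-ZW replicate 1 (0.119) or MSA-DA replicate 2 (0.256).

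In the glutamine and aspartate supply list 3 of 12 tested genes fell and 9 did not pass, beside 6.5% called lower of all tested genes, and the median was -0.05. Slc25a22, a mitochondrial glutamate carrier, fell 1.21-fold, from 35.3 ± 0.862 CPM on MSA-ZW to 29.1 ± 1.74 on MSA-DA (SD, n = 3, edgeR adjusted p = 0.00261). Glul, glutamine synthetase, stood at 27.5 ± 0.0626 against 32.0 ± 1.29 CPM (1.17-fold lower, edgeR adjusted p = 0.018). Got2, the mitochondrial aspartate aminotransferase of the malate-aspartate shuttle, stood at 317 ± 5.78 against 341 ± 10.1 CPM (1.07-fold lower, edgeR adjusted p = 0.0137). Glul lost its call without MSA-ZW replicate 3 or MSA-DA replicate 2 or 3 (edgeR adjusted p of 0.0522 to 0.0771), and Got2 without MSA-DA replicate 3 (0.0861). DESeq2 did not call Glul (adjusted p = 0.0675) and limma did not call Got2 (adjusted p = 0.0581). Glutamate dehydrogenase, Glud1, did not pass (edgeR adjusted p = 0.97). Of 3 tested genes that clear itaconate-derived or 2-hydroxyglutarate metabolites, and of 8 tested regulators of mitochondrial gene expression, edgeR, DESeq2 and limma called none. Unadjusted edgeR p was below 0.05 for 0 of the 3 and 3 of the 8.

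Of 11 tested factors known to induce or bind Acod1 in activated macrophages, 6 fell and 5 did not pass, beside 6.5% called lower of all tested genes. Of genes at 64 CPM or more, a range that holds some of the 11, 26.8% were called in either direction. With DESeq2, with limma or with the GC correction 4 were called. All 11 log2 differences were below 0, with a median of -0.17 beside 0.00 for all tested genes. The list largely consists of interferon pathway genes, whose direction in these data was known when it was written, so it is not independent evidence. Irf8, a myeloid interferon regulatory factor, stood at 53.8 ± 1.73 against 66.5 ± 0.432 CPM (SD, n = 3, 1.24-fold lower, edgeR adjusted p = 1.19e-05). Irf7, a driver of interferon production, stood at 1009 ± 7.86 against 1136 ± 24.8 CPM (1.13-fold lower, edgeR adjusted p = 8.12e-07), and Stat2, a subunit of the interferon-activated transcription complex, was 1.10-fold lower (edgeR adjusted p = 0.00158). Irf1, a direct activator of inflammatory genes, stood at 30.9 ± 0.42 against 35.8 ± 3.08 CPM (1.16-fold lower, edgeR adjusted p = 0.0281). The NF-kB subunit gene Nfkb1 was 1.09-fold lower (edgeR adjusted p = 0.032), and Rela, its partner, did not pass (0.435). Irf1 lost its call without MSA-ZW replicate 2 or 3 or any 1 MSA-DA library (edgeR adjusted p of 0.0666 to 0.148), and Nfkb1 without MSA-ZW replicate 1 or 3 or MSA-DA replicate 1 or 2 (0.0578 to 0.143). DESeq2, limma and the GC correction called neither.

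Genes tied to itaconate through the KEAP1-NRF2 and ATF3 pathways were higher on MSA-DA, where Acod1 was lower, or did not pass. The list mixes roles. Beside NRF2 and its targets it holds the regulator Keap1, and Nfkbiz, which itaconate is known to restrain. A higher value thus does not have the same meaning for each gene. Of 10 tested genes 6 rose and 4 did not pass, with a median log2 difference of 0.18. This stands beside 6.92% called higher of all tested genes, and 26.8% called in either direction of those at 64 CPM or more. The direction of several of these 10 was likewise known beforehand. Nfe2l2, which encodes NRF2, stood at 149 ± 5.01 against 133 ± 3.24 CPM (SD, n = 3, 1.12-fold higher, edgeR adjusted p = 0.000858), and its restraint Keap1 did not pass (interval -7.4% to 2.7%, edgeR adjusted p = 0.599). Txnrd1, cytosolic thioredoxin reductase, which uses NADPH, stood at 668 ± 5.74 CPM on MSA-DA and 598 ± 11.4 on MSA-ZW, 1.12-fold higher (edgeR adjusted p = 1.45e-05). Nfkbiz, which encodes the NF-kB cofactor I-kappa-B zeta, rose 1.15-fold, with 69.6 ± 0.73 CPM on MSA-DA and 60.5 ± 1.39 on MSA-ZW (edgeR adjusted p = 0.00165). The stress factor Atf3, through which itaconate is known to restrain it, stood at 54.0 ± 1.98 against 54.3 ± 1.88 CPM (edgeR adjusted p = 0.966). Hmox1, Gclm and Slc7a11 were the other members that rose.

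Of 8 tested iron regulatory genes connected with Aco1, 4 rose and 4 did not pass, with a median log2 difference of 0.07. Across all tested genes 6.92% were called higher. Of those at 64 CPM or more, 26.8% were called in either direction, and every gene of the list but Slc11a2 was in that range. DESeq2 called 2 of the 8 and limma 1. Ireb2, the second iron regulatory protein, did not pass (170 ± 3.46 against 170 ± 7.17 CPM, SD, n = 3, edgeR adjusted p = 0.982). Of the transcripts that carry iron responsive elements, the iron exporter Slc40a1 rose most (edgeR adjusted p = 1.15e-15). The transferrin receptor Tfrc, whose message these proteins stabilise, stood at 1223 ± 30.7 against 1156 ± 7.07 CPM (edgeR adjusted p = 0.011), and ferritin heavy chain Fth1, whose translation they block, at 7935 ± 68 against 7666 ± 282 CPM (edgeR adjusted p = 0.0467). The iron importer Slc11a2 was 1.12-fold higher (edgeR adjusted p = 0.0379). Slc40a1 kept its call under every alternative. Leaving out MSA-ZW replicate 1 or 2 or MSA-DA replicate 1 or 2 left 2 calls in the list, leaving out MSA-DA replicate 3 left 1, and leaving out MSA-ZW replicate 3 left 4. Fth1 was called by neither DESeq2 (adjusted p = 0.139) nor limma (adjusted p = 0.363), and in edgeR it lost its call with RLE factors (adjusted p = 0.0556) and without the filter on low counts (0.0975). Slc11a2 was called by neither DESeq2 (adjusted p = 0.12) nor limma (0.0949), nor by edgeR without the filter (0.0594), and limma did not call Tfrc (adjusted p = 0.0963). With the GC correction the log2 difference of Tfrc was 0.02 (edgeR adjusted p = 0.695). Even so 4 of the 8 were called higher with it, so at least 1 gene not called in the main fit gained a call.

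**Figure D5:**
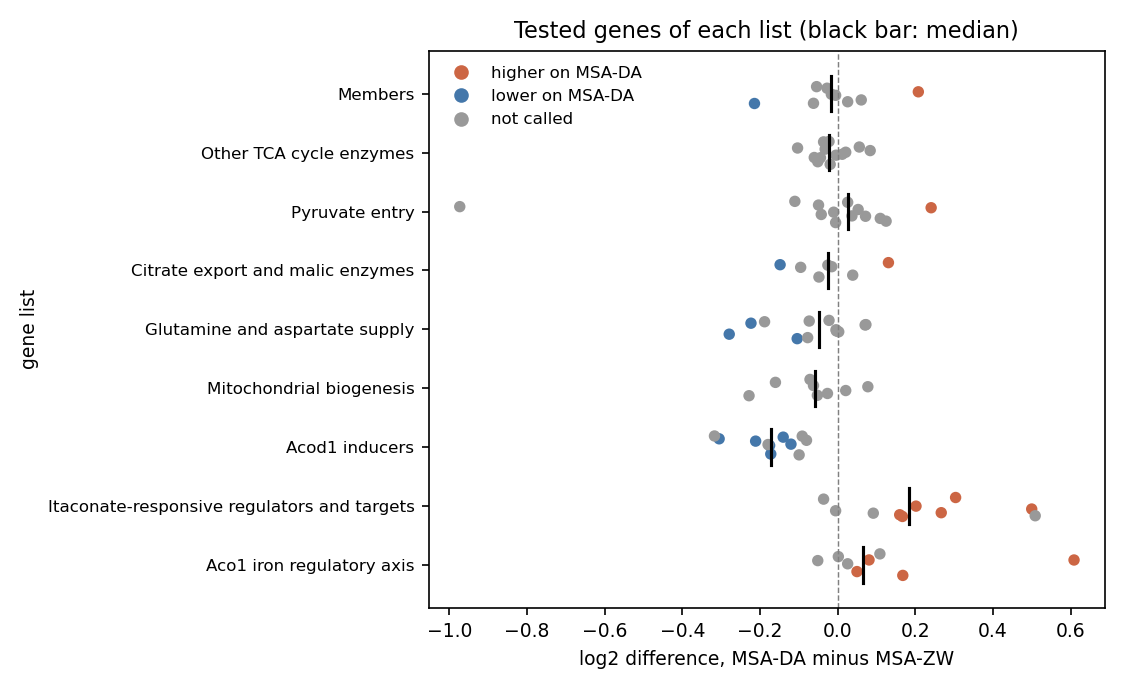
Log2 difference of MSA-DA minus MSA-ZW for the tested genes of each list, with colour for the edgeR call and a black bar for the list's median. The cycle genes and their supply lists centre near 0, with medians between -0.05 and 0.03, while the medians of the Acod1 inducers (-0.17) and of the itaconate-responsive genes (0.18) lie on opposite sides.

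The 5 genes whose log2 CPM followed that of Acod1 most closely over the 6 libraries, among 8322 named genes that averaged 10 CPM or more, were Mgat4a, Phf5a, Myo1f, Pole and Ap5b1. Their Pearson r with Acod1 was 0.99 for Mgat4a and 0.98 for the other 4. The 6 points fall into 2 groups and share library depth, so r describes these libraries. Mgat4a, a glycosyltransferase, stood at 98.0 ± 1.35 against 103 ± 1.34 CPM (SD, n = 3) and did not pass the test (edgeR adjusted p = 0.25). Pole, the catalytic subunit of a replicative DNA polymerase, was 1.10-fold lower (edgeR adjusted p = 0.00416) and Myo1f, a myosin of leukocytes, 1.15-fold lower (edgeR adjusted p = 0.0358). Among the members, Idh1 had an r of -0.92 with Acod1 and Aco1 one of -0.81, while the other 6 lay between -0.25 and 0.61.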

How the data were processed

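The tools named in the submitters' processing notes are HISAT2 2.2.1, cutadapt 1.9.1 and bcl2fastq 2.20.0.422, and the build is GRCm39. No source used here names the counting tool, the strand setting or the annotation release. The authors deposited 1 table with raw counts and FPKM per library, per the file headers. The deposited FPKM values equal the count over exonic length and library total to within 0.005. Counts were tested with edgeR 4.0.16 (filterByExpr, TMM, glmQLFit and glmQLFTest on the gel alone, R 4.3.3), with Benjamini-Hochberg adjustment over 12467 genes and a threshold of 0.05. CPM use TMM-scaled library sizes, standard errors are the log2 difference over the root of F, and 95% intervals use the fit's degrees of freedom, unadjusted. The common dispersion gave a biological coefficient of variation of 3.04%. The fits were also run on counts simulated from the observed means and fitted dispersions. That outcome is not reported here, and such counts cannot test the assumptions of the model. Alternatives were DESeq2 1.42.0, limma 3.58.1 on log2(FPKM + 1) and log2(FPKM + 0.1) for genes of at least 1 FPKM in 3 libraries, RLE factors, no filter on low counts, a replicate block and leaving out each library. A loess correction for GC content (GENCODE M21 transcripts, 98.9% of tested genes matched) and length was added after seeing the data.

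The members and gene lists were chosen with earlier results of these data known. All members were named, with every called gene of the other lists and set enzymes of the cycle; other list genes and 1 list in the closing section were named after their values were seen. Results for some genes and 1 ratio are not reported here. Every pair of libraries differed by more than sampling noise, so all 6 were kept as separate samples.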

Additional observations from a re-analysis of the deposited data

How the results depend on the processing

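Idh1 stayed called higher and Acod1 called lower under all 13 alternatives, and no other member was called under any. The count of called genes, 1673, was 964 with DESeq2, 906 and 895 with limma at pseudocounts of 1 and 0.1, and 1001 to 1654 with each library left out in turn, lowest without MSA-DA replicate 2 and next without MSA-DA replicate 3 (1065). Called enzymes among the other 13 numbered 0 to 1 higher and 0 to 1 lower with a library left out. Without 1 library the log2 difference ran from -0.25 to -0.18 for Acod1, from 0.20 to 0.22 for Idh1, from -0.03 to 0.01 for Idh3a and from -0.02 to 0.06 for Fh1, so the sign of the last pair, which did not pass, is not fixed. With the GC and length correction Fh1 stood at -0.02, Mdh2 at 0.02 and Dld at -0.0036, none called. Of 23 called genes of the other lists, 12 kept their call in every alternative that tested them and 0 changed sign. With a replicate block edgeR called 1594 genes and changed no call among the members. Deviations of same-numbered libraries correlated at -0.00531 to 0.0138, and those of differently numbered ones at -0.0201 to 0.0165. Values this near 0 do not settle whether the numbers pair the libraries. Aco1 had the fewest counts of the members and the widest interval among those not called.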

Other observations

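Idh1 was set beside the other enzymes that make NADPH, in a list chosen after the values were seen. Of 5 cytosolic producers, Idh1 and Me1 rose, Pgd fell, and G6pdx and Mthfd1 did not pass. Across all tested genes 13.4% were called, and 26.8% of those at 64 CPM or more, a range that holds all 5. Me1 was not called by DESeq2 (adjusted p = 0.0569), by limma on log2(FPKM + 1) (0.127) or by edgeR with the GC correction (0.077). G6pdx, the first enzyme of the pentose phosphate pathway, had 664 ± 0.238 CPM in the MSA-DA libraries, against 670 ± 5.18 (SD, n = 3, interval -4.1% to 2.5%, edgeR adjusted p = 0.798). Pgd, its downstream dehydrogenase, stood at 959 ± 11.2 against 1010 ± 11 CPM (edgeR adjusted p = 0.0208), a call that was lost without MSA-DA replicate 2 (0.0714) or replicate 3 (0.103), without the filter on low counts (0.0591) and with the GC correction (0.134). With that correction 1 of the 5 was called lower, so a producer other than Pgd gained a call. Mthfd1, a folate cycle enzyme, stood at 188 ± 3.06 against 200 ± 6.69 CPM (edgeR adjusted p = 0.0605). Of the 4 tested genes in the mitochondrial list edgeR, DESeq2 and limma called none, with 1 at an unadjusted edgeR p below 0.05. Mthfd2 had an interval of -2.8% to 7.1%. Mthfd1l, a folate cycle enzyme listed here though it does not itself make NADPH, had one of -6.7% to 2.9%. The transcript of the cytosolic enzyme Idh1 and that of its mitochondrial counterpart Idh2 thus gave a higher value and a value that did not pass, and the difference between them was tested by the exact permutation test on their ratio alone.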
